A study of Mus musculus with 12 samples.

Results

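Primary mouse hepatocytes with a knockout of G3bp1 were compared with control hepatocytes under BSA, gene by gene. The comparison used 6 of the 12 RNA-seq libraries of the series: 3 from G3bp1-Flox mice, the controls, called Flox (Flox_BSA 1 to 3), and 3 from mice with a hepatocyte-specific knockout of G3bp1, called HKO (HKO_BSA 1 to 3). All mice were 6 weeks old, and all cells compared here had the treatment labelled BSA. The other 6 libraries carried the treatment PA and entered the fit, so that 4 groups shared 1 estimate of the spread. Levels are in FPKM, read fragments scaled by gene length and sequencing depth. Genes were kept where the mean over the 6 BSA libraries reached 1 FPKM, which left 9773 of the 54532 genes in the table. Of the rest, 32405 were listed at 0 in all 6 libraries. The gene just inside the minimum was Mtr, with a mean of 1.0023 FPKM, and the one just outside was Gimap4, with 0.99996 FPKM. The stated aim of the series was to learn what G3BP1 does in NASH (fatty liver disease with inflammation). The labels give neither the Cre line behind the knockout nor whether the Flox mice carried Cre, nor the sex of the mice or the dose and time of BSA. They also do not say whether the 3 libraries of a group came from separate mice, so the p-values below reflect the spread between libraries alone, which may be technical.

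The 6 libraries held 15.9 to 18.4 M reads in genes (M, mega) and 16912 to 18248 genes above 0. Hepatocyte products were abundant throughout: Ttr, the thyroid hormone carrier transthyretin, was at 1078, 959 and 1190.3 FPKM in Flox and 1878, 1691 and 2080.1 FPKM in HKO. Library HKO_BSA 1 stood apart from the other HKO libraries. Across the 9773 genes, its deviations from the group mean correlated at -0.81 with those of HKO_BSA 2 and at -0.686 with those of HKO_BSA 3, while the latter pair correlated at 0.129. Deviations within a group of 3 sum to 0, which by itself pulls these values below 0. The gap was plainest in albumin (Alb), at 4135, 4276 and 4521 FPKM in Flox and 4091, 15614 and 14048 FPKM in HKO, where HKO_BSA 1 lay just under the Flox libraries. Mitochondrial genes took 2.96 to 4.34% of reads in Flox and 4.10 to 8.20% in HKO. List counts below that moved markedly without HKO_BSA 1 are therefore given with and without it.

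G3BP1 is an RNA-binding protein that gathers untranslated messenger RNA into stress granules, and G3BP2 is its close relative. Hepatocytes fill most of the liver's mass and make plasma proteins, bile acids and lipoproteins, clear drugs and ammonia, and store glucose and lipid. Kupffer cells are the macrophages that live in the liver's blood vessels, and they take up debris and respond to microbes and interferon. A preparation of primary hepatocytes can carry some of them along. For this reason, transcripts known from macrophages, transcripts of immune pathways that both cell types can make, and transcripts known from hepatocytes are described apart below.

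G3bp1 itself (ENSMUSG00000018583, GRCm38 chr11:55469685-55504838, plus strand) was measured at 40.02, 37.7 and 45.7 FPKM in the Flox libraries and 7.77, 8.48 and 8.497 FPKM in the HKO libraries. The groups did not overlap, and the mean in HKO was 20.04% of that in Flox (log2 difference -2.19, SE 0.117, adjusted p = 3.35e-09; limma on log2(FPKM + 1), Benjamini-Hochberg over all genes tested). G3bp2 was measured at 2.16, 2.29 and 1.75 FPKM in Flox and 1.59, 2.58 and 2.09 FPKM in HKO, with overlapping groups and a log2 difference of 0.00 (SE 0.1304). Of the 49 members tested of a list of G3BP proteins and other stress granule components, 8 passed lower (16.3%), G3bp1 included, and 1 passed higher (2.04%). Over all genes tested, 10.9% were lower, 9.72% were higher and 20.6% passed in either direction, so the list had no evident excess of calls. Eif2ak2, the interferon-induced kinase PKR that halts translation, was at 3.71, 3.74 and 2.05 FPKM in Flox and 1.34, 1.31 and 0.521 FPKM in HKO (log2 difference -1.02, SE 0.233, adjusted p = 0.00627). Taf15, a nuclear RNA-binding protein, was at 21.6, 22.3 and 18.9 FPKM in Flox and 12.8, 10.95 and 10.2 FPKM in HKO, and Nufip2, a partner of FMRP, at 5.76, 6.36 and 4.2997 FPKM in Flox and 2.66, 3.198 and 2.96 FPKM in HKO. Both lay lower in every HKO library (-0.84, adjusted p = 0.00265, and -0.71, adjusted p = 0.00745). The cytoplasmic poly(A)-binding protein Pabpc1 fell from 238, 239 and 235 to 157, 178 and 169.7 FPKM (log2 difference -0.49, SE 0.113, adjusted p = 0.00611). Caprin1 and Usp10, which bind G3BP1 directly, did not pass (log2 differences -0.38 and 0.04, adjusted p = 0.169 and 0.914). With libraries rescaled to TPM, in which the length-scaled levels of a library sum to 1 fixed total, 14 members were lower and 0 higher. Without Flox_BSA 2 or HKO_BSA 3 the lower count was 5, and the higher count was 0 without Flox_BSA 1 or HKO_BSA 2 and 2 without HKO_BSA 1.

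Over all genes tested, 2016 passed at an adjusted p under 0.05, which is 20.6%. Of these, 950 (9.72%) were higher in HKO, said below to have risen, and 1066 (10.9%) were lower, said to have fallen. Counts of list members are to be read against these shares, and a count near them is no result about the list. Without any reference to the test, all 3 HKO libraries lay above all 3 Flox libraries for 19.7% of genes and below them for 18.2%. Most genes named below were picked with groups that did not overlap, so such a separation follows from the choice and is no added result. The split between directions depended on scaling: 47.1% of the genes that passed were higher as deposited, 33.0% after scaling to reads outside mitochondrial genes (648 higher, 1313 lower) and 25.3% after scaling to TPM (517 higher, 1529 lower). The median gene moved from 0.04 as deposited to -0.12 in TPM on the log2 scale, so small differences of 1 sign are relative to that choice. The higher count was 540, 546 and 604 without Flox_BSA 1, Flox_BSA 2 or HKO_BSA 3. The large changes were mostly losses. Falls of more than 2 on the log2 scale numbered 232 and rises of that size 25.

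**Figure D1:**
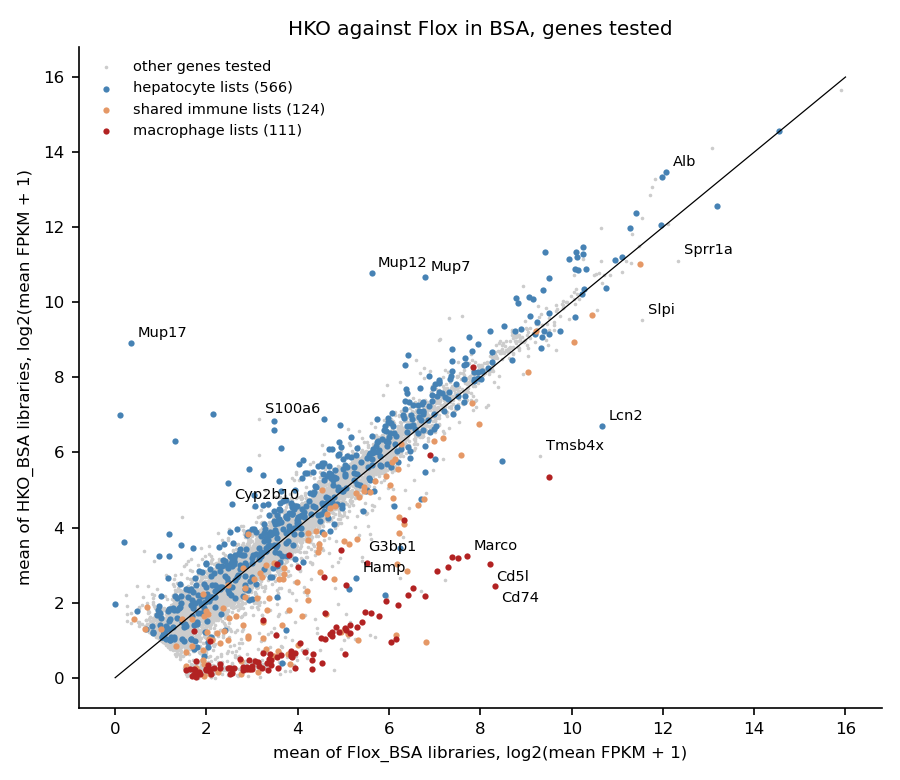
Mean of the 3 Flox_BSA libraries (x axis) against the mean of the 3 HKO_BSA libraries (y axis) for the 9773 genes tested, both as log2(mean FPKM + 1), with genes coloured by class of list and the diagonal marking equal means. The 111 genes of the macrophage lists lie almost all far below the diagonal, while the 566 genes of the hepatocyte lists spread on both sides of it, with the Mup genes highest above.

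The classes of genes differed in size of change. Of 111 genes tested in the macrophage lists, 110 fell (99.1%), 79 by more than 2 and 48 by more than 3 on the log2 scale. Of 124 genes in the shared immune lists, 94 fell (75.8%) and 4 rose. The 566 genes of the hepatocyte lists rose more often than they fell: 186 rose (32.9%) and 50 fell (8.83%), with 19 rises of more than 2. Without HKO_BSA 1 these became 226 and 54. In TPM they were 138 and 72. Some members of the hepatocyte lists are known from macrophages or leukocytes too, so their falls are not those of hepatocyte transcripts alone. The 3 members that fell by more than 3 were Lcn2, Ctsc and Hk3, each described below as made in such cells. Genes in no list, 8360 of them, rose in 8.17% of cases (683, and 367 to 902 with 1 library left out, the least without Flox_BSA 1, Flox_BSA 2 and HKO_BSA 3) and fell in 8.96%. They made up 8360 of the 9773 genes tested and 104 of the 232 falls of more than 2. These counts describe lists that were drawn up with earlier results of the same data known, and no test of a list is given.

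Macrophage transcripts were reduced together. All 24 tested members of the Kupffer cell and macrophage list fell (median log2 difference -3.76), and summed over its 26 members their level was 2157 to 2280 FPKM in Flox against 91.0 to 127 FPKM in HKO. What was left per gene had a median of 4.34%, 3.35% and 4.26% of the Flox mean in HKO_BSA 1, 2 and 3. Fcgr1, a high-affinity IgG receptor, kept least, with 0.932% over the group, and Cd68, a lysosomal protein, kept most, with 21.6%; both were singled out after the values were seen. C1qb, a chain of complement C1q, was at 185, 191 and 168 FPKM in Flox and 11.1, 4.72 and 8.63 FPKM in HKO. No defining macrophage marker was at 0 in all 6 libraries, in either genotype. In these bulk libraries, fewer macrophages and less RNA per macrophage cannot be told apart.

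The wider myeloid and leukocyte list followed with 80 of 81 members lower (median -2.59). Siglec1, a sialic acid receptor of resident macrophages, was at 18.9, 25.4 and 21.97 FPKM in Flox and 0.496, 0.275 and 0.187 FPKM in HKO, and Fcer1g, the shared signalling chain of Fc receptors, at 160.1, 143 and 161 FPKM in Flox and 7.299, 5.52 and 7.29 FPKM in HKO (-4.13, adjusted p = 1.80e-10, and -4.34, adjusted p = 2.27e-10). Tyrobp, the adaptor of TREM2 and related receptors, fell by a similar amount (log2 difference -4.29, SE 0.251, adjusted p = 7.97e-09), and so did the IgG receptor Fcgr4 (log2 difference -4.42, SE 0.188, adjusted p = 3.64e-10). Lgals3, which encodes galectin-3 and is not a macrophage product alone, was the 1 member that did not pass, at 240.4, 224 and 223 FPKM in Flox and 385, 242 and 307 FPKM in HKO (log2 difference 0.42, SE 0.182, adjusted p = 0.129). All 6 tested genes of MHC class II presentation fell, and their sum over 11 members was 492 to 527 FPKM in Flox against 5.78 to 13.4 FPKM in HKO. H2-Eb1, the beta chain of class II E, held 3.32, 1.39 and 2.2997 FPKM in the HKO libraries against 40.1, 43.1 and 46.3 in Flox.

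The transcription factor PU.1, which macrophages need, binds sequences with the core GAGGAAG. The 250 bases before the start of Marco (a scavenger receptor) and Cd5l (the secreted AIM protein), both among the 3 Kupffer list members with the largest falls by log2 difference, are shown with that core in capitals on either strand. They come from RefSeq on GRCm38.p6, 5′ to 3′ on the gene's strand, at chr1:120505025-120505274 (minus) and chr3:87357631-87357880 (plus).
Marco: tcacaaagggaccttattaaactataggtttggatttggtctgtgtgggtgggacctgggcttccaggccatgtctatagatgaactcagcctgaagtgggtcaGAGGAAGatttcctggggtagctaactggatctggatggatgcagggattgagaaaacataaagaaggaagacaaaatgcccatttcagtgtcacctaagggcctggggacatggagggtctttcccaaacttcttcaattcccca
Cd5l: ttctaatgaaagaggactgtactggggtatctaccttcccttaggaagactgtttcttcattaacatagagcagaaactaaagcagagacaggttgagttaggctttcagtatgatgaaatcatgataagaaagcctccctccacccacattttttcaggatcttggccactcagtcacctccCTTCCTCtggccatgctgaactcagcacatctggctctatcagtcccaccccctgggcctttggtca
Each holds 1 match. The same letters occurred in 4 of the 20 Kupffer list promoters found in RefSeq (20%), in 17 of 58 of the myeloid list (29.3%) and in 12% of all 27025 promoters in the table. Among genes that passed they occurred in 17.2% of promoters of genes that fell and 11.3% of those that rose. A match describes the letters only.

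Interferon-response genes fell widely: 38 of 41 tested, with a median of -1.10. Ifi27l2a, an interferon-induced mitochondrial protein, was at 69.6, 77.7 and 62.8 FPKM in the Flox libraries and 1.81, 0.274 and 1.502 FPKM in the HKO libraries (log2 difference -5.09, SE 0.237, adjusted p = 7.44e-10). The oligoadenylate synthetases, which sense double-stranded RNA and activate RNase L, were close behind: Oas1a was at 31.4, 35.2 and 33.1 FPKM in Flox and 1.67, 1.08 and 0.953 FPKM in HKO, Oas1g had a log2 difference of -3.47 and Oas3 of -2.97. Every one of these was lower in all HKO libraries. The exceptions that did not pass, named after the values were seen, were Gbp2 (-0.48, adjusted p = 0.289), Iigp1 (0.29, adjusted p = 0.521) and Isg20 (-0.32, adjusted p = 0.0628), of which the guanylate-binding Gbp2 was low in HKO_BSA 1 alone (6.43, 16.2 and 17.9 FPKM). The shared immune lists moved beside the macrophage markers above, and the part of those cells in this change was not tested.

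Interferon-stimulated promoters carry a repeated GAAA, searched here on both strands as GAAA, any 2 bases, GAAA. The pair shown fell by different amounts; the capitals are the matches, which overlap in Oas1a. The stretches are chr19:34640639-34640888 (plus) for Ifit1 and chr5:120907526-120907775 (minus) for Oas1a, again RefSeq on GRCm38.p6, the 250 bases before the start.
Ifit1: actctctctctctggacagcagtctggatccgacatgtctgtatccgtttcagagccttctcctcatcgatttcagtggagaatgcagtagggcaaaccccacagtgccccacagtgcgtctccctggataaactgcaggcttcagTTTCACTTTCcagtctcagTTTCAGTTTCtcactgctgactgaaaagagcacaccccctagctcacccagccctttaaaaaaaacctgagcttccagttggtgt
Oas1a: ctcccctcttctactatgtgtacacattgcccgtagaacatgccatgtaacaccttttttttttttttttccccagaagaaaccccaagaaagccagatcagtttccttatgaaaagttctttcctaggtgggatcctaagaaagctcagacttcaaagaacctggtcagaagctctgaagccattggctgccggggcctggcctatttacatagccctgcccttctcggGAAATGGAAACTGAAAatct
Both hold 2 matches. Ifit1, an antiviral protein that binds foreign RNA caps, was at 2.95, 3.31 and 2.21 FPKM in Flox and 0.412, 1.19 and 0.414 FPKM in HKO (log2 difference -1.21, SE 0.195, adjusted p = 0.000391). The motif was in 16 of 30 promoters of the interferon list (53.3%) against 3.46% of all promoters, and in 7.67% of promoters of genes that fell against 2.9% of those that rose.

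Other immune lists were lower to different degrees. MHC class I and the immunoproteasome gave 13 lower of 20, and Toll-like receptors with the inflammasome 9 of 16, with 0 higher in either. H2-Q7, a non-classical class I gene with close relatives, was at 77.7, 85.01 and 75.97 FPKM in Flox and 24.4, 12.3 and 11.9 FPKM in HKO, and Psmb8, a catalytic subunit of the immunoproteasome, at 20.2, 24.3 and 19.6 FPKM in Flox and 9.21, 4.06 and 4.87 FPKM in HKO (-2.30, adjusted p = 1.27e-06, and -1.73, adjusted p = 5.00e-05). Il1b and Casp1, the inflammasome's product and protease, fell (-3.16, adjusted p = 6.03e-09, and -1.67, adjusted p = 7.57e-07). Chemokines gave 14 lower of 19: the macrophage chemokine Ccl6 was at 107, 116 and 109 FPKM in Flox and 1.69, 0.283 and 0.839 FPKM in HKO, and the B cell chemokine Cxcl13 at 41.3, 34.4 and 40.4 FPKM in Flox and 0.672, 0.882 and 1.51 FPKM in HKO. Among 30 cytokine and NF-kB feedback genes, 22 fell, with Tnf at 5.83, 5.99 and 5.59 FPKM in Flox and 0.315, 0.271 and 0.5302 FPKM in HKO and the signalling brake Socs3 at 11.5, 11.98 and 11.5 FPKM in Flox and 2.47, 1.05 and 1.42 FPKM in HKO.

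A few members of these immune lists rose, and all 4 were chosen here after their values were seen. Both ligands of the macrophage growth factor receptor CSF1R were among them: Csf1 was at 6.36, 6.15 and 7.19 FPKM in the Flox libraries and 14.3, 12.98 and 12.5 FPKM in the HKO libraries (log2 difference 0.91, SE 0.155, adjusted p = 0.000617), and Il34 at 0.88003, 0.301 and 0.684 FPKM in Flox and 3.52, 2.33 and 2.19 FPKM in HKO (log2 difference 1.18, SE 0.155, adjusted p = 5.39e-05). The groups did not overlap for either gene, while their receptor gene Csf1r, one of the Kupffer markers, fell (log2 difference -4.29, SE 0.137, adjusted p = 1.06e-10). Ccl20, a chemokine that epithelial cells also make, rose from under 1 FPKM to 1.77, 1.87 and 2.28 FPKM (log2 difference 1.17, SE 0.129, adjusted p = 9.09e-06). Socs2, a growth hormone target as well as a cytokine brake, rose by 0.65 (adjusted p = 0.00357).

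Of the other cells a liver preparation could hold, summed markers of lymphocytes, neutrophils and endothelial cells were under those of Kupffer cells in both genotypes. Stellate and bile duct markers are described further below. Lymphocyte markers summed to 114 to 128 FPKM in Flox and 8.74 to 11.1 FPKM in HKO, with 29 of 33 members under 1 FPKM in all 6 libraries. The chemokine Ccl5, which stands in the chemokine list as well and was singled out after its values were seen, held most of that sum (91.5, 84.3 and 73.2 FPKM in Flox and 7.45, 4.96 and 6.03 FPKM in HKO). Neutrophil markers summed to 56.6 to 63.2 and 1.14 to 2.46 FPKM, and endothelial markers to 54.9 to 57.3 and 35.9 to 43.0 FPKM. The immunoglobulin light chain Igkc was at 26.5, 22.7 and 30.8 FPKM in Flox and 0, 0.238 and 0.218 FPKM in HKO, and the immunoglobulin segment Ighv9-3 was listed at 0 in HKO_BSA 2 and 3. Neutrophil Mmp9 was at 37.1, 38.7 and 36.3 FPKM in Flox and 1.602, 0.842 and 0.737 FPKM in HKO, although macrophages also make this collagenase. Of 14 endothelial genes tested, 7 fell (4 without HKO_BSA 3) and 0 rose. Stab1, a scavenger receptor of sinusoids that macrophages share, was at 7.86, 8.81 and 8.66 FPKM in Flox and 2.48, 1.71 and 1.56 FPKM in HKO, and the junction gene Cdh5 at 6.94, 8.23 and 7.799 FPKM in Flox and 3.16, 2.897 and 2.83 FPKM in HKO (-1.71, adjusted p = 1.54e-05, and -1.13, adjusted p = 0.000153). Pf4, a platelet factor, was at 50.8, 47.5 and 43.4 FPKM in Flox and 1.34, 1.06 and 1.21 FPKM in HKO. Of the 14 red cell and platelet markers, 11 were under 1 FPKM in all 6 libraries, and which cells Pf4 came from was not tested. Alas2, the red cell enzyme of heme synthesis, was slightly higher (log2 difference 0.57, SE 0.133, adjusted p = 0.00719), a call lost in TPM (adjusted p = 0.0542).

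The stellate and matrix sum was higher in HKO, at 332 to 351 FPKM in Flox and 398 to 515 FPKM in HKO, with 32 of its 45 members under 1 FPKM in all libraries. Its direction by member was mixed: 1 of 11 tested rose (2 without HKO_BSA 1) and 4 fell. Fibronectin (Fn1), which hepatocytes secrete too, was at 102, 113 and 107 FPKM in the Flox libraries and 286, 281 and 188 FPKM in the HKO libraries (log2 difference 1.20, SE 0.298, adjusted p = 0.0107). Mmp13 and Mmp14, a collagenase and a membrane protease, were at 4.83, 6.98 and 6.62 FPKM in Flox and 0.145, 0.119 and 0.152 FPKM in HKO and at 17.7, 19.3 and 19.4 FPKM in Flox and 8.83, 6.53 and 6.104 FPKM in HKO. Ecm1, a secreted matrix protein, fell (log2 difference -2.01, SE 0.1601, adjusted p = 2.44e-07). Fn1 thus separated from the 3 others in both level and direction.

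Outside the macrophage and shared lists, many of the sharpest falls were in genes known from myeloid cells, which is background and not a result. Wfdc17, a secreted protease inhibitor of activated macrophages, was at 139, 159 and 148 FPKM in the Flox libraries and 6.89, 3.45 and 4.78 FPKM in the HKO libraries (log2 difference -4.67, SE 0.243, adjusted p = 2.47e-09). Cyba, the p22 subunit of the phagocyte oxidase, was at 109, 107 and 92.7 FPKM in Flox and 6.26, 1.59 and 3.96 FPKM in HKO, and the formyl peptide receptors Fpr2 and Fpr1 at 30.8, 26.1 and 32.2 FPKM in Flox and 0.895, 0.881 and 0.313 FPKM in HKO and at 30.97, 27.9 and 35.4 FPKM in Flox and 0.681, 1.198 and 1.14 FPKM in HKO. Sirpa, the receptor for the don't-eat-me signal CD47, was at 57.2, 62.3 and 62.9 FPKM in Flox and 4.05, 3.22 and 3.14 FPKM in HKO. None of these overlapped between the groups. Further falls of more than 3.5 on the log2 scale were those of Ly6a (-4.63), Sdc3 (-3.80), the inhibitory lectin Siglece (-3.70), Lrrc25 (-3.69), the granule protease activator Ctsc (-3.70) and Marcksl1 (-3.65). They moved beside the summed Kupffer markers, and that cell type's part in each was not tested.

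Several abundant genes fell outside the immune lists. Slpi, a secreted inhibitor of leukocyte proteases that epithelia make, was at 2945, 2877 and 3088 FPKM in the Flox libraries and 922, 594 and 699 FPKM in the HKO libraries (log2 difference -2.03, SE 0.176, adjusted p = 6.40e-07). Tmsb4x, the main actin-sequestering peptide and abundant in leukocytes, was at 636, 609 and 648 FPKM in Flox and 59.2, 47.3 and 69.2 FPKM in HKO (log2 difference -3.42, SE 0.189, adjusted p = 4.45e-09). Ifitm3, an interferon-induced membrane protein, was at 1525, 1518 and 1499 FPKM in Flox and 1171, 728 and 785 FPKM in HKO, and Ctsz, a lysosomal cathepsin, at 476, 486 and 499 FPKM in Flox and 323, 239 and 246 FPKM in HKO. By difference in mean FPKM these were among the 10 largest losses outside the macrophage and shared lists. All 3 HKO libraries lay below Flox for each, with HKO_BSA 1 the highest of the HKO libraries for Slpi, Ifitm3 and Ctsz.

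**Figure D2:**
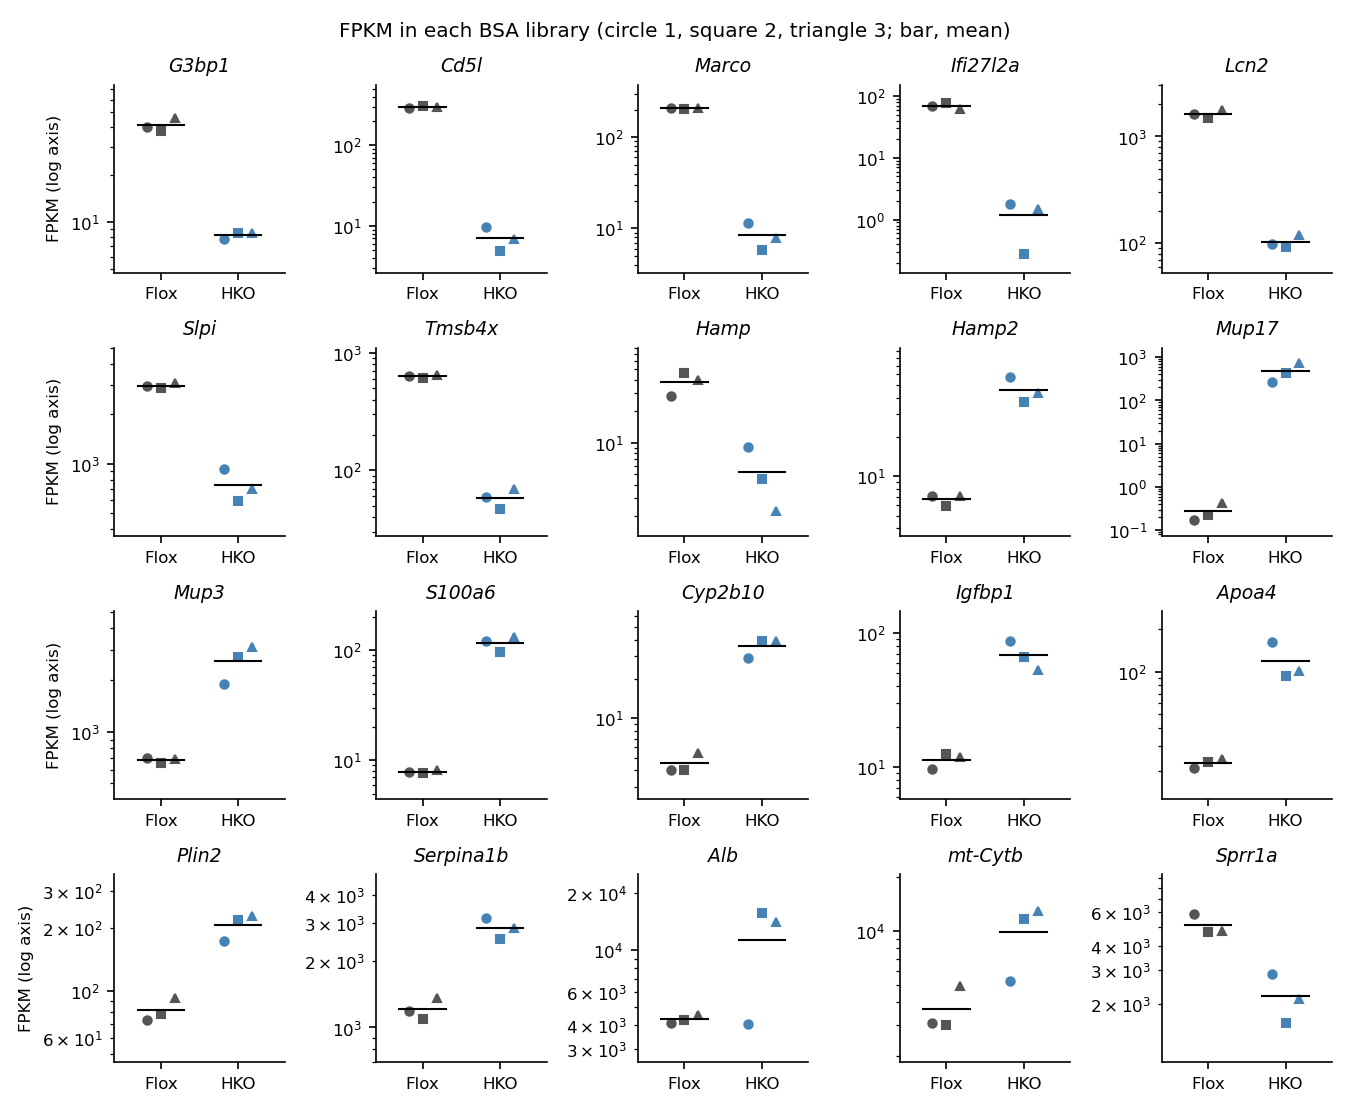
FPKM in each BSA library on log axes for 20 genes, Flox in grey and HKO in blue, with symbols for libraries 1 to 3 and a bar at the group mean. The groups do not overlap for any gene shown except Alb, where HKO_BSA 1 (4091 FPKM) lies below the Flox libraries. The genes other than Alb were chosen with separated groups.

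The most increased genes belonged to the major urinary proteins (MUPs), pheromone carriers that male mouse liver secretes under growth hormone. Of 14 tested, 11 rose and 0 fell (median 3.41). Mup17 was at 0.169, 0.231 and 0.422 FPKM in the Flox libraries and 275, 434 and 726 FPKM in the HKO libraries (log2 difference 8.45, SE 0.342, adjusted p = 2.61e-10). Mup7 was at 118, 92.6 and 117 FPKM in Flox and 1126, 1655 and 2133 FPKM in HKO, Mup12 at 24.8, 54.9 and 65.2 FPKM in Flox and 1089, 2419 and 1747 FPKM in HKO and Mup3 at 703, 656 and 691 FPKM in Flox and 1899, 2721 and 3115 FPKM in HKO. In all of them every HKO library lay above every Flox library, which the choice of named genes required. Mup11, Mup15, Mup16 and Mup14 had log2 differences of 4.93, 5.12, 4.11 and 3.57, and Mup18 was high mainly in HKO_BSA 3 (0.0562, 0.173 and 0.1801 FPKM in Flox and 1.87, 3.55 and 28.4 FPKM in HKO). Mup10, chosen after its values were seen, did not pass, and a single library held nearly all of it: 0, 0.0771 and 0.161 FPKM in Flox and 0.417, 381 and 0.9996 FPKM in HKO (log2 difference 3.25, SE 1.58, adjusted p = 0.175).

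MUP genes lie side by side on chromosome 4 and are near copies, so reads can be split between them. Of all 50-base words in the GENCODE transcripts, the share found in no other gene was 86.7% for Mup3, 49.5% for Mup20, 21.9% for Mup17, 13.3% for Mup7 and 0% for Mup15. Of these 5, Mup3 thus gives the most separable values. Mup4, at 87.6%, and Mup21, at 80.7%, were also largely separable, and their levels are not reported here. Mup20, added after the values were seen and known as darcin, was at 76.6, 68.9 and 108 FPKM in the Flox libraries and 319, 378 and 461 FPKM in the HKO libraries (log2 difference 2.19, SE 0.224, adjusted p = 4.10e-06). The 250 bases before the start of Mup17 show how close the family is (RefSeq, GRCm38.p6, chr4:61595833-61596082, minus strand, TATA box TATATAA in capitals).
Mup17: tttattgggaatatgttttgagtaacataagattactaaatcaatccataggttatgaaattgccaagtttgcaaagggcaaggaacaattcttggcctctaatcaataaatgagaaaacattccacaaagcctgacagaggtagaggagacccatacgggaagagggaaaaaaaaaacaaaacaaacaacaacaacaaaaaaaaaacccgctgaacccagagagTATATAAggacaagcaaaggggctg
Aligned over 247 bases, the promoter of Mup15 was 100% identical to it. That of Mup11 was 99.6% identical over 226 bases, and that of Mup3, the more separable member, 87.6% over 201. The letters TATATAA, on either strand, were in 7 of 10 MUP promoters (70%) and in 3.6% of all promoters.

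Growth hormone and IGF genes rose in part: 6 of 14 higher and 1 lower. Igf1, the hormone that growth hormone induces in liver, was at 10.5, 10.7 and 12.1 FPKM in the Flox libraries and 32.2, 36.9 and 41.2 FPKM in the HKO libraries (log2 difference 1.64, SE 0.184, adjusted p = 1.07e-05). Its binding proteins also rose, Igfbp1 from 9.66, 12.5 and 11.9 to 86.8, 65.7 and 52.96 FPKM, Igfbp4 from 32.9, 27.3 and 27.9 to 141, 80.9 and 95.2 and Igfbp2 from 54.96, 52.9 and 48.1 to 171, 82.2 and 102. Igfbp1 showed the largest difference of the 4 (log2 difference 2.47, SE 0.209, adjusted p = 4.88e-07). HKO_BSA 1 was the highest HKO library for the 3 binding proteins and the lowest for Igf1, so the standing of that library differed between genes of 1 axis.

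Secreted plasma proteins rose in 16 and fell in 3 of 42 genes tested (median 0.54). The summed level of the list was 27200 to 31720 FPKM in Flox and 35610 to 48100 FPKM in HKO. The count of rises was 10 without Flox_BSA 2 and 24 without HKO_BSA 1, and the count of falls was 1 without Flox_BSA 1, 2 or 3. Albumin illustrates the rises gained without HKO_BSA 1, with a log2 difference of 1.16 (adjusted p = 0.0635) that became 1.78 (adjusted p = 0.000456) without that library. The antitrypsins were steadier: Serpina1b was at 1190, 1097 and 1369 FPKM in the Flox libraries and 3150.1, 2531 and 2845 FPKM in the HKO libraries (log2 difference 1.22, SE 0.155, adjusted p = 3.98e-05) and its near copy Serpina1d at 896, 947 and 1115 FPKM in Flox and 2431, 2028 and 2350.2 FPKM in HKO. Selenop, which carries selenium to other organs, was at 187, 206 and 252 FPKM in Flox and 313, 660.3 and 632 FPKM in HKO (log2 difference 1.24, SE 0.258, adjusted p = 0.0031), with HKO_BSA 1 lowest among the HKO libraries. Hpx, the heme carrier hemopexin and an acute phase protein, went down (9319, 9081 and 9654 FPKM in Flox and 7382, 5002 and 5862 FPKM in HKO), and its adjusted p of 0.0207 was 0.0634 to 0.0743 without Flox_BSA 1, 2 or 3 or HKO_BSA 2 or 3.

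Apolipoproteins and genes of VLDL export gave 10 higher and 3 lower of 24. Apoa4, made with newly exported lipoproteins, was at 20.95, 23.2 and 24.1 FPKM in the Flox libraries and 161, 93.1 and 101 FPKM in the HKO libraries (log2 difference 2.29, SE 0.248, adjusted p = 7.56e-06). Apoa2, the other main protein of HDL besides APOA1, was at 2691, 2812 and 2641 FPKM in Flox and 6381, 4312 and 5194 FPKM in HKO (log2 difference 0.95, SE 0.206, adjusted p = 0.00438). Lipc, the hepatic lipase, was at 23.1, 22.2 and 33.04 FPKM in Flox and 47.1, 77.8 and 75.3 FPKM in HKO. All 3 stood above Flox in every HKO library, with HKO_BSA 1 the highest for the apolipoproteins and the lowest for Lipc. Apoe, made by hepatocytes and macrophages alike, was at 2538, 2478 and 2418 FPKM in Flox and 5178, 3248 and 3659 FPKM in HKO (log2 difference 0.67, SE 0.189, adjusted p = 0.0215), and without Flox_BSA 1, 2 or 3 or HKO_BSA 1 its adjusted p was 0.0514 to 0.0723. Of those lower, the phospholipid transfer protein Pltp was at 13.1, 11.7 and 12.1 FPKM in Flox and 1.84, 1.06 and 1.36 FPKM in HKO and the receptor Lrp1 at 9.53, 12.5 and 10.1 FPKM in Flox and 4.68, 3.52 and 2.16 FPKM in HKO; macrophages are known to express both. Lpl, the lipoprotein lipase of muscle, fat and macrophages, was at 17.7, 19.9 and 14.7 FPKM in Flox and 0.4305, 0.436 and 0.459 FPKM in HKO (log2 difference -3.67, SE 0.1399, adjusted p = 1.68e-10).

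Among 29 hepatocyte transcription factors and nuclear receptors, 5 rose (17.2%) and 3 fell (10.3%), against 9.72% and 10.9% of all genes tested. In TPM 4 rose and 6 fell. The count of falls was 1 without Flox_BSA 1, Flox_BSA 2 or HKO_BSA 3 and 5 without HKO_BSA 1. Foxa2, a pioneer factor of endoderm, was at 3.35, 4.16 and 3.91 FPKM in the Flox libraries and 11.4, 8.67 and 10.2 FPKM in the HKO libraries (log2 difference 1.20, SE 0.162, adjusted p = 7.02e-05). Creb3l3, which drives apolipoprotein and FGF21 genes, was at 9.37, 9.496 and 9.28 FPKM in Flox and 22.5, 16.7 and 18.6 FPKM in HKO, and Pparg at 2.62, 2.58 and 3.01 FPKM in Flox and 4.56, 6.66 and 6.87 FPKM in HKO. Cebpd, induced in the acute phase, fell (6.95, 7.39 and 6.45 FPKM in Flox and 4.42, 2.34 and 3.12 FPKM in HKO; log2 difference -0.91, SE 0.209, adjusted p = 0.00627). Each of the 4 was separated between the groups.

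Drug-metabolising enzymes that passed were nearly all higher in HKO. Of 35 CYP1, CYP2 and CYP3 genes, 18 rose and 0 fell (median 0.74), and of 53 conjugation enzymes 25 rose and 3 fell (median 0.60). Cyp2b10, the classic target of the receptor CAR, was at 4.06, 4.06 and 5.45 FPKM in the Flox libraries and 28.8, 38.95 and 39.3 FPKM in the HKO libraries (log2 difference 2.73, SE 0.1605, adjusted p = 8.34e-09). Cyp2a5 and its near copy Cyp2a4 were at 69.4, 78.3 and 93.1 FPKM in Flox and 297, 345 and 312 FPKM in HKO and at 8.45, 7.44 and 9.41 FPKM in Flox and 38.6, 44.9 and 38.97 FPKM in HKO. Cyp2e1, which oxidises ethanol and paracetamol, was at 159.9, 149.99 and 189.8 FPKM in Flox and 312, 381 and 342 FPKM in HKO (log2 difference 1.05, SE 0.144, adjusted p = 9.01e-05). The 4 CYP genes were above Flox in every HKO library. Of the conjugation enzymes, the glutathione transferase Gsta2 was at 16.1, 13.99 and 18.6 FPKM in Flox and 46.97, 52.2 and 65.2 FPKM in HKO and the methyltransferase Nnmt at 14.7, 14.4 and 17.04 FPKM in Flox and 58.996, 40.5 and 53.3 FPKM in HKO. The CYP count was 11 without Flox_BSA 1 or HKO_BSA 3 and 28 without HKO_BSA 1, and the conjugation count was 14 without Flox_BSA 2 or HKO_BSA 3 and 15 without Flox_BSA 1. In TPM, conjugation enzymes gave 19 higher and 5 lower.

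Bile acid genes were mixed, with 7 higher and 2 lower of 22; 3 and 3 in TPM, and 3 higher without Flox_BSA 1 or Flox_BSA 2 and 4 higher without HKO_BSA 3. The lower count was 1 without Flox_BSA 2, Flox_BSA 3 or HKO_BSA 1. Slc10a1, the sodium-driven uptake carrier NTCP, was at 6.13, 5.32 and 10.1 FPKM in the Flox libraries and 13.7, 34.6 and 36.3 FPKM in the HKO libraries (log2 difference 1.76, SE 0.306, adjusted p = 0.000751). Cyp8b1, the enzyme that sets the cholic acid share, was at 0.375, 0.3301 and 0.487 FPKM in Flox and 3.47, 1.89 and 1.99 FPKM in HKO (log2 difference 1.28, SE 0.147, adjusted p = 1.48e-05). Slc27a5, which joins bile acids to CoA, was at 134, 123 and 148 FPKM in Flox and 272, 210.2 and 213 FPKM in HKO. These carriers and enzymes were higher in all 3 HKO libraries. Cyp7b1, of the alternative pathway, was lower at 14.4, 16.4 and 18.4 FPKM in Flox and 3.27, 10.3 and 8.88 FPKM in HKO (log2 difference -1.14, SE 0.318, adjusted p = 0.0204), and its adjusted p was 0.0637, 0.0653 and 0.0522 without Flox_BSA 2, Flox_BSA 3 or HKO_BSA 1.

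Genes of lipid storage moved in both directions. Plin2, the coat protein of hepatocyte lipid droplets, was at 72.8, 78.2 and 93.4 FPKM in the Flox libraries and 173, 219 and 228 FPKM in the HKO libraries (log2 difference 1.33, SE 0.155, adjusted p = 1.70e-05). Hsd17b13, another droplet protein of hepatocytes, was at 10.7, 10.5 and 12.8 FPKM in Flox and 20.8, 34.3 and 36.5 FPKM in HKO (log2 difference 1.32, SE 0.225, adjusted p = 0.000646). G0s2, the inhibitor of the triglyceride lipase ATGL, went the other way, at 66.2, 75.1 and 61.5 FPKM in Flox and 29.9, 16.7 and 22.1 FPKM in HKO (log2 difference -1.55, SE 0.188, adjusted p = 2.50e-05), as did the carboxylesterase Ces1d, at 103, 97.7 and 129 FPKM in Flox and 47.8, 41.6 and 40.6 FPKM in HKO (log2 difference -1.32, SE 0.143, adjusted p = 7.92e-06). The groups were apart for all 4. The list of 26 droplet and triglyceride genes gave 7 higher and 5 lower, 11 and 5 after quantile normalization, and 3 lower without Flox_BSA 2, HKO_BSA 1 or HKO_BSA 3.

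PPARA targets and genes of fatty acid oxidation rose in 13 (25%) and fell in 5 (9.62%) of 52 cases, against 9.72% and 10.9% of all genes tested. Without Flox_BSA 1, 2 fell, and 3 fell without Flox_BSA 2, Flox_BSA 3, HKO_BSA 2 or HKO_BSA 3. The omega-hydroxylase Cyp4a14 was at 0.984, 1.09 and 1.67 FPKM in the Flox libraries and 6.64, 15.7 and 17.2 FPKM in the HKO libraries (log2 difference 2.57, SE 0.254, adjusted p = 2.70e-06), and Cyp4a10 at 4.19, 4.81 and 5.64 FPKM in Flox and 16.3, 28.2 and 27.1 FPKM in HKO (log2 difference 2.05, SE 0.216, adjusted p = 5.57e-06). Angptl4, a secreted inhibitor of lipoprotein lipase, was at 22.4, 21.9 and 21.5 FPKM in Flox and 61.6, 45.96 and 48.4 FPKM in HKO. Cd36, a fatty acid receptor that macrophages also carry, fell (3.33, 3.32 and 1.98 FPKM in Flox and 0.431, 0.583 and 0.452 FPKM in HKO; log2 difference -1.36, SE 0.157, adjusted p = 1.48e-05).

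Cholesterol synthesis gave 14 higher and 0 lower of 27 (median 0.61), with 10 to 18 higher when 1 library was left out. Cyp51, the lanosterol demethylase, was at 19.2, 21.1 and 26.5 FPKM in the Flox libraries and 29.6, 63.8 and 52.7 FPKM in the HKO libraries (log2 difference 1.04, SE 0.2205, adjusted p = 0.00372). Insig2, which retains the sterol sensor in the endoplasmic reticulum, was at 8.18, 8.34 and 10.9 FPKM in Flox and 17.5, 26.5 and 26.7 FPKM in HKO and the phosphomevalonate kinase Pmvk at 14.2, 14.8 and 13.9 FPKM in Flox and 38.6, 28.6 and 25.1 FPKM in HKO. HKO_BSA 1 was the lowest HKO library for Cyp51 and Insig2 and the highest for Pmvk. Fatty acid synthesis gave 9 higher and 3 lower of 25, 5 higher without Flox_BSA 1 or Flox_BSA 2, 1 lower without Flox_BSA 1, Flox_BSA 2 or HKO_BSA 3, and 3 and 3 in TPM. Thrsp, a lipogenic nuclear protein, was at 7.92, 8.87 and 9.005 FPKM in Flox and 18.01, 13.9 and 16.6 FPKM in HKO (log2 difference 0.84, SE 0.149, adjusted p = 0.000925). The elongation enzyme Hsd17b12 rose (log2 difference 0.94, SE 0.223, adjusted p = 0.00778), and the desaturase Scd2, which is not the main liver form, fell (log2 difference -0.97, SE 0.133, adjusted p = 8.75e-05).

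In glucose metabolism 10 of 51 genes rose (19.6%) and 5 fell (9.8%), against 9.72% and 10.9% of all genes tested. In TPM 8 rose and 7 fell. G6pc, the last enzyme of glucose release, was at 0.563, 1.3997 and 1.78 FPKM in the Flox libraries and 8.62, 8.09 and 8.47 FPKM in the HKO libraries (log2 difference 2.10, SE 0.265, adjusted p = 3.65e-05). The liver glucose transporter Slc2a2 (GLUT2) was at 1.38, 1.799 and 1.96 FPKM in Flox and 5.53, 13.2 and 12.96 FPKM in HKO (log2 difference 2.01, SE 0.258, adjusted p = 4.30e-05). Enzyme forms known from other cells fell: the hexokinase Hk3 of leukocytes was at 11.7, 12.8 and 10.2 FPKM in Flox and 0.55999, 0.103 and 0.236 FPKM in HKO, and Pkm, the pyruvate kinase form of most non-hepatocytes, at 99.04, 107 and 103 FPKM in Flox and 34.9, 21.9 and 21.8 FPKM in HKO. These falls stood beside the macrophage marker sums given above, and the part of those cells in them was not tested.

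Urea cycle and amino acid catabolism gave 19 higher and 2 lower of 60, 12 higher without Flox_BSA 1, Flox_BSA 2 or HKO_BSA 3, and 11 and 3 in TPM. The lower count was 1 with any library but HKO_BSA 1 left out. Gnmt, which uses surplus methionine as S-adenosylmethionine, was at 556, 536 and 522 FPKM in the Flox libraries and 1472, 832 and 1050.1 FPKM in the HKO libraries (log2 difference 1.02, SE 0.204, adjusted p = 0.00252). Tat, the tyrosine aminotransferase that glucocorticoids induce, was at 9.58, 9.25 and 11.8 FPKM in Flox and 19.6, 21.1 and 21.2 FPKM in HKO (log2 difference 0.96, SE 0.128, adjusted p = 6.82e-05). Both genes were above Flox in all HKO libraries.

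Hepatocytes are zoned, with urea synthesis near the portal vein and drug metabolism near the central vein. Of 22 periportal genes 13 rose and 1 fell (median 0.75), and of 16 pericentral genes 6 rose and 0 fell (median 0.40). Leaving out 1 library gave 12 to 13 rises among periportal genes, and 3 to 8 among pericentral genes, with 3 without Flox_BSA 1 or Flox_BSA 2, while 1 pericentral gene fell without HKO_BSA 1. Hsd17b6, a periportal steroid enzyme, was at 2.02, 2.35 and 2.45 FPKM in the Flox libraries and 9.61, 10.1 and 10.2 FPKM in the HKO libraries (log2 difference 1.75, SE 0.126, adjusted p = 8.09e-08). Cyp2c37, a pericentral P450, was at 20.6, 19.6 and 28.7 FPKM in Flox and 33.2, 58.1 and 63.05 FPKM in HKO (log2 difference 1.10, SE 0.252, adjusted p = 0.00632). Both zones hence had members higher in HKO. Ctsc, the 1 periportal member that fell, is also expressed in myeloid cells.

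Acute phase proteins, which hepatocytes make under IL-6 and IL-1, fell more often than they rose: 10 of 32 lower and 3 higher. Lcn2, the siderophore binder lipocalin-2 that neutrophils and macrophages make as well, was at 1633, 1494 and 1763 FPKM in the Flox libraries and 97.8, 92.6 and 120.1 FPKM in the HKO libraries (log2 difference -3.97, SE 0.162, adjusted p = 2.65e-10). Orm2, an orosomucoid, was at 324, 316 and 430.1 FPKM in Flox and 40.99, 56.4 and 64.7 FPKM in HKO, and Saa3, a serum amyloid that macrophages share, at 71.6, 87.8 and 63.1 FPKM in Flox and 12.2, 8.49 and 9.38 FPKM in HKO (-2.71, adjusted p = 3.92e-07, and -2.77, adjusted p = 4.06e-08). No HKO library reached any Flox library for these 3. After quantile normalization 17 fell and 2 rose, and without HKO_BSA 1 the counts were 14 and 7.

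Iron genes held an opposed pair. Hamp encodes hepcidin, which blocks iron export by degrading ferroportin and is induced by IL-6 and BMP. It was at 27.9, 46.05 and 39.9 FPKM in the Flox libraries and 9.12, 4.49 and 2.26 FPKM in the HKO libraries (log2 difference -2.75, SE 0.348, adjusted p = 3.69e-05). Hamp2, its tandem copy in the mouse, was at 7.08, 5.89 and 7.09 FPKM in the Flox libraries and 57.1, 36.7 and 43.6 FPKM in the HKO libraries (log2 difference 2.59, SE 0.242, adjusted p = 1.45e-06). The first fell and the second rose, each with separated groups, and of 50-base words in their transcripts 83.4% and 88.8% were found in no other gene. Their promoters are shown because they are near copies: 250 bases before the start, RefSeq, GRCm38.p6, chr7:30944030-30944279 (minus) and chr7:30924182-30924431 (minus), with capitals at bases unlike the other copy or outside the alignment.
Hamp: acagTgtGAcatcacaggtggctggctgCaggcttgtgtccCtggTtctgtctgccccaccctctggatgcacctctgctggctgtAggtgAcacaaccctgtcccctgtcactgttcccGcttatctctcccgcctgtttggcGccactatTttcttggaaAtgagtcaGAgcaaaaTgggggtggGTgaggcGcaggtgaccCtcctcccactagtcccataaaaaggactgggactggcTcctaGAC
Hamp2: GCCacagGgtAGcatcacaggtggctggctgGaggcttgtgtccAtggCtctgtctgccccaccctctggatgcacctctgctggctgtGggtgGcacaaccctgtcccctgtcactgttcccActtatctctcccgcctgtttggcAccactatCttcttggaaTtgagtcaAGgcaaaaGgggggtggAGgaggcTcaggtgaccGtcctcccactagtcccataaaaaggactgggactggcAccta
Over 247 aligned bases, 227 were identical (91.9%) and 20 were unlike. In the rest of the iron list, Steap4, an inflammatory metalloreductase, was at 2.17, 4.03 and 3.01 FPKM in Flox and 0.756, 0.985 and 0.569 FPKM in HKO, and Cp, the ferroxidase ceruloplasmin, at 44.2, 50.6 and 32.4 FPKM in Flox and 18.8, 22.8 and 20.9 FPKM in HKO (-1.18, adjusted p = 0.000204, and -0.97, adjusted p = 0.00678). The list gave 6 lower and 3 higher of 27, and 9 and 2 in TPM.

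Complement and coagulation gave 11 higher and 4 lower of 41, 6 higher without Flox_BSA 1 or HKO_BSA 3, 4 higher without Flox_BSA 2, and 6 and 6 in TPM. C8g, a chain of the membrane attack complex, was at 119, 117 and 116 FPKM in the Flox libraries and 329, 197 and 255 FPKM in the HKO libraries (log2 difference 1.11, SE 0.217, adjusted p = 0.00194). Factor B (Cfb) fell to 1.004, 0.898 and 0.882 FPKM from 3.31, 2.62 and 3.34 (log2 difference -1.08, SE 0.179, adjusted p = 0.000505), and Fcna, the ficolin that macrophages make, to 6.096, 2.26 and 3.96 from 34.2, 36.4 and 31.3 (log2 difference -2.84, SE 0.226, adjusted p = 2.34e-07).

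**Figure D3:**
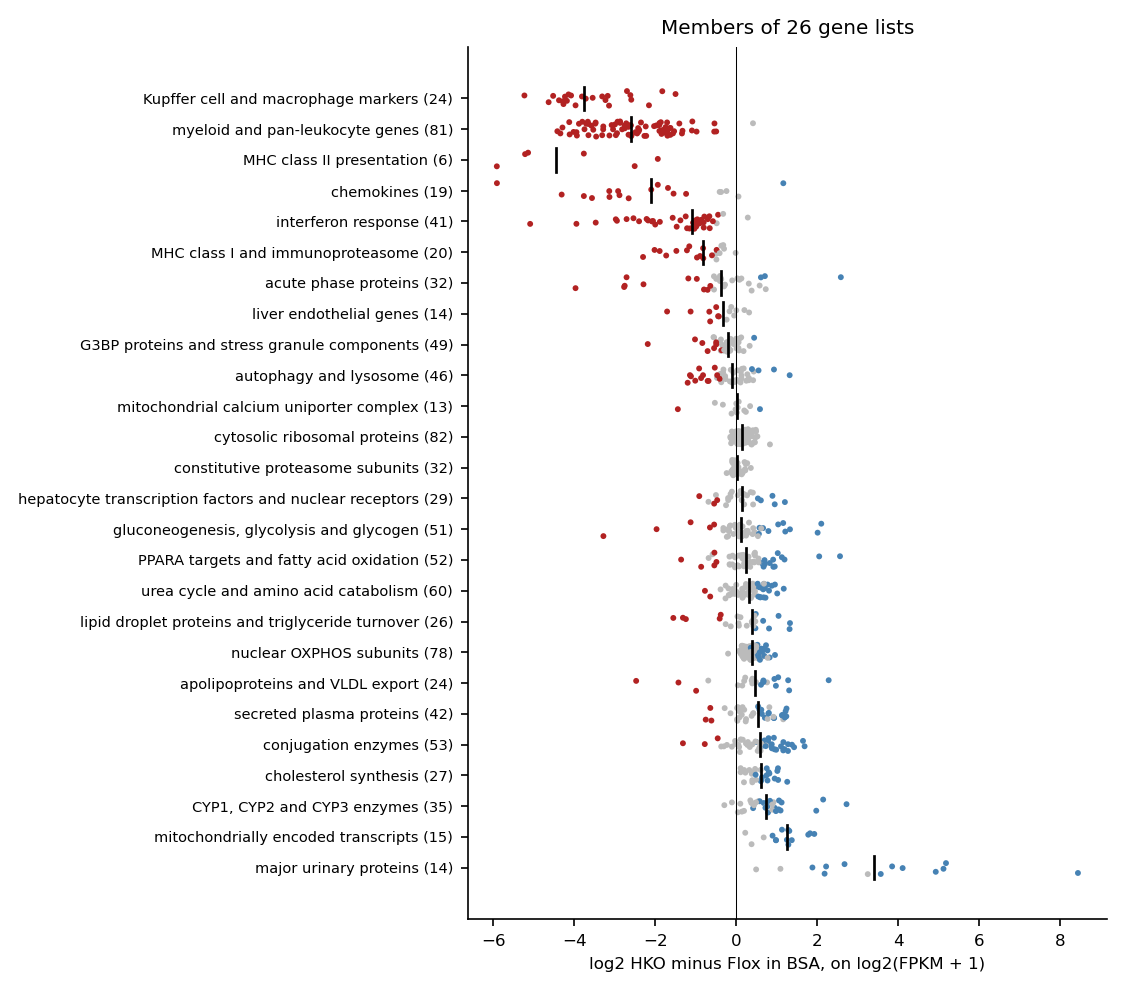
Log2 difference, HKO minus Flox in BSA on log2(FPKM + 1), of every tested member of 26 gene lists (number tested in brackets), with genes that passed higher in blue, passed lower in red, and not passed in grey, and a black bar at the list's median. Medians run from -4.45 for MHC class II presentation to 3.41 for the major urinary proteins, while ribosomal proteins and constitutive proteasome subunits have no member in colour.

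A few small or structural genes changed strongly outside these functions. S100a6, a calcium-binding protein of epithelial and mesenchymal cells, was at 7.87, 7.69 and 8.13 FPKM in the Flox libraries and 122, 96.5 and 131 FPKM in the HKO libraries (log2 difference 3.71, SE 0.171, adjusted p = 6.68e-10), and its transcript words were 100% its own. S100a4 was at 0.984, 0.643 and 0 FPKM in Flox and 9.16, 8.15 and 11.01 FPKM in HKO (log2 difference 2.81, SE 0.249, adjusted p = 8.25e-07). The groups of both genes were far apart, and the 3 Flox values of S100a6 lay close together. In the same actin and YAP list, the receptor kinase Axl fell (8.04, 7.84 and 9.02 FPKM in Flox and 0.525, 0.479 and 0.184 FPKM in HKO; log2 difference -2.74, SE 0.1604, adjusted p = 8.00e-09). That list was otherwise balanced, 6 higher (10.9%) and 7 lower (12.7%) of 55, near the 9.72% and 10.9% of all genes tested. It gave 3 higher and 13 lower in TPM, and 3 higher without Flox_BSA 1, Flox_BSA 2 or HKO_BSA 3.

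Some genes named for the cornified layer of skin fell, of which Sprr1a and Crct1 were abundant. Sprr1a was at 5852, 4728 and 4799 FPKM in the Flox libraries and 2883, 1609 and 2136 FPKM in the HKO libraries (log2 difference -1.25, SE 0.2201, adjusted p = 0.000856), Sprr1b at 89.6, 70.1 and 74.5 FPKM in Flox and 15.5, 11.997 and 9.98 FPKM in HKO (log2 difference -2.56, SE 0.166, adjusted p = 2.42e-08) and Crct1 at 866, 813 and 748 FPKM in Flox and 525, 307 and 448 FPKM in HKO (log2 difference -0.95, SE 0.196, adjusted p = 0.00291). Each had separated groups. Another such gene, Lce1d, named after its values were seen, rose (5.32, 4.19 and 4.36 FPKM in Flox and 15.02, 12.7 and 16.1 FPKM in HKO; log2 difference 1.47, SE 0.1797, adjusted p = 2.61e-05). Tubb6, a tubulin of stressed and dividing cells, was at 737, 688 and 709 FPKM in Flox and 521, 427 and 445 FPKM in HKO (log2 difference -0.62, SE 0.125, adjusted p = 0.00263), and Cd44, the hyaluronan receptor, at 5.83, 6.498 and 5.28 FPKM in Flox and 0.837, 0.899 and 1.01 FPKM in HKO (log2 difference -1.84, SE 0.124, adjusted p = 3.71e-08). The keratin, epidermal and junction list gave 12 higher and 7 lower of 34, 6 and 7 in TPM, 6 higher without Flox_BSA 1 and 7 higher without Flox_BSA 2.

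Genes associated with bile duct cells rose in part. The summed cholangiocyte markers were 1023 to 1092 FPKM in Flox and 2004 to 2503 FPKM in HKO, with 10 of 20 members under 1 FPKM in all 6 libraries. Of 9 tested, 5 rose and 0 fell. Clu, the chaperone clusterin that hepatocytes also secrete, held the largest share of that sum, at 486, 486 and 494 FPKM in the Flox libraries and 1558, 1273 and 1324 FPKM in the HKO libraries (log2 difference 1.50, SE 0.145, adjusted p = 2.13e-06). The claudin Cldn4 was at 52.4, 59.9 and 60.3 FPKM in Flox and 261, 134 and 159 FPKM in HKO, and the ductal transcription factor Sox9 at 3.82, 3.92 and 3.58 FPKM in Flox and 7.04, 6.64 and 7.06 FPKM in HKO (1.61, adjusted p = 0.000102, and 0.73, adjusted p = 0.000367). Both were higher in all HKO libraries.

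**Figure D4:**
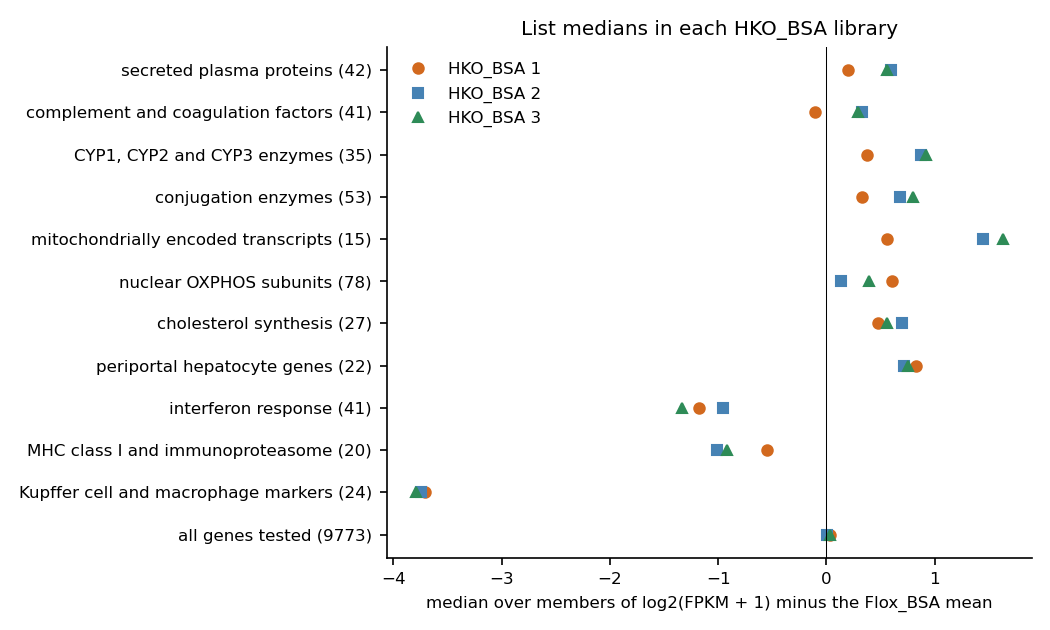
Median over the members of 11 gene lists, and over all genes tested, of log2(FPKM + 1) in each HKO_BSA library minus the Flox_BSA mean, with the number of genes tested in brackets. The libraries nearly coincide for Kupffer cell markers (-3.71, -3.74 and -3.79 in HKO_BSA 1, 2 and 3), whereas HKO_BSA 1 lies below the others for plasma proteins, complement, CYP and conjugation enzymes and mitochondrial transcripts.

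Transcripts encoded by mitochondrial DNA were higher, 12 of 15, with a median of 1.25; 8 passed after quantile normalization, 3 without Flox_BSA 1, 5 without HKO_BSA 3 and 7 without Flox_BSA 2. mt-Nd1, a subunit of complex I, was at 2899, 3039.9 and 4395 FPKM in the Flox libraries and 5769, 9213 and 10672 FPKM in the HKO libraries (log2 difference 1.29, SE 0.261, adjusted p = 0.00261). mt-Cytb, of complex III, was at 3063, 2979.8 and 4921 FPKM in Flox and 5249.6, 11622 and 12842 FPKM in HKO (log2 difference 1.37, SE 0.324, adjusted p = 0.00745), and after quantile normalization its log2 difference was 0.28 (adjusted p = 0.433). The HKO libraries were above Flox in both, HKO_BSA 1 least. Nuclear genes for the same respiratory complexes gave 16 higher and 0 lower of 78, but 4 without Flox_BSA 2, 6 without HKO_BSA 3, 8 without Flox_BSA 1 and 30 without HKO_BSA 2. Uqcrb, a subunit of complex III, was at 63.6, 55.7 and 56.3 FPKM in Flox and 94.5, 113 and 141 FPKM in HKO (log2 difference 0.96, SE 0.209, adjusted p = 0.00447).

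The mitochondrial calcium uniporter, named in the title of the series, is built of the pore MCU, its paralog MCUB, the scaffold EMRE (Smdt1) and gatekeepers that include MICU2. Mcub, the subunit that lowers uptake, was at 2.34, 2.77 and 2.67 FPKM in the Flox libraries and 0.342, 0.192 and 0.4396 FPKM in the HKO libraries (log2 difference -1.44, SE 0.114, adjusted p = 2.20e-07). Its groups were well apart, with all HKO values under 1 FPKM, where the log2(FPKM + 1) scale understates a change. Macrophages are known to express Mcub, and their marker sums moved with it; the part of those cells was not tested. Mcu was at 4.68, 4.48 and 5.27 FPKM in Flox and 6.07, 6.61 and 6.45 FPKM in HKO (log2 difference 0.34, SE 0.131, adjusted p = 0.0812): every HKO library was above every Flox library, and the test was not passed. Micu2 and Smdt1 had log2 differences of 0.00 (SE 0.1396) and 0.06 (SE 0.199), neither past the test, with Smdt1 highest in HKO_BSA 1 (93.5, 49.7 and 58.1 FPKM in HKO). The calcium-regulated carrier Slc25a23 was higher (2.14, 1.66 and 2.53 FPKM in Flox and 4.71, 3.26 and 3.13 FPKM in HKO; log2 difference 0.59, SE 0.147, adjusted p = 0.0108), with an adjusted p of 0.0678 without Flox_BSA 2. The exchanger gene Slc8b1 (NCLX) and the carrier-linked Letm1 did not pass (adjusted p = 0.157 and 0.278). In all, 1 of 13 rose (0 without Flox_BSA 2) and 1 fell (2 without HKO_BSA 1). Each is 7.69% of the list, against 9.72% higher and 10.9% lower over all genes tested.

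Housekeeping machinery had few or no calls. Of 82 cytosolic ribosomal protein genes and 32 constitutive proteasome subunits, 0 passed in either direction in limma as deposited, against 20.6% of all genes, while 5 and 0 had an unadjusted p under 0.05. In limma-voom 0 passed as well. Without HKO_BSA 1, 9 ribosomal protein genes and 1 proteasome gene rose. Without Flox_BSA 1 or Flox_BSA 3, 1 ribosomal protein gene rose, and with an estimated weight for each library 35 did. Rpl17 came nearest, with overlapping groups at 322, 155 and 189.6 FPKM in Flox and 260.1, 469 and 444 FPKM in HKO (log2 difference 0.84, SE 0.32001, adjusted p = 0.0841). Psmd8 of the proteasome cap was at 447, 428 and 507 FPKM in Flox and 586, 506 and 579 FPKM in HKO (log2 difference 0.27, SE 0.1297, adjusted p = 0.163). Metallothioneins and zinc transporters gave 0 calls of 8 in limma and limma-voom, with 2 at an unadjusted p under 0.05.

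Counts in the stress lists were small. Over all genes tested, 10.9% were lower and 9.72% higher. ATF4 and CHOP targets gave 4 lower (13.3%) and 1 higher (3.33%) of 30, 13 and 1 in TPM. Without HKO_BSA 1, 9 were lower and 2 higher, and without Flox_BSA 1 or HKO_BSA 3, 2 were lower. Chac1, a glutathione-degrading target, was at 152, 134 and 144 FPKM in the Flox libraries and 114, 81.1 and 86.5 FPKM in the HKO libraries (log2 difference -0.62, SE 0.139, adjusted p = 0.00505), and Nupr1 at 34.8, 29.7 and 37.1 FPKM in Flox and 17.7, 21.4 and 23.1 FPKM in HKO (log2 difference -0.68, SE 0.144, adjusted p = 0.00352). Atf3, the member that rose, was at 10.7, 10.3 and 12.3 FPKM in Flox and 18.4, 18.1 and 19.1 FPKM in HKO (log2 difference 0.70, SE 0.125, adjusted p = 0.00101). Chac1 and Nupr1 hence lay below Flox and Atf3 above it, in every HKO library. Antioxidant and NRF2 genes gave 3 higher (9.68%) and 5 lower (16.1%) of 31, and 1 and 7 after quantile normalization. The lower count was 3 without Flox_BSA 1 or Flox_BSA 2. Sod2, the mitochondrial superoxide dismutase that NF-kB induces, was at 64.1, 65.9 and 69.6 FPKM in Flox and 29.5, 23.5 and 26.9 FPKM in HKO (log2 difference -1.29, SE 0.128, adjusted p = 2.65e-06). Ephx1, a detoxifying epoxide hydrolase, rose (82.7, 79.7 and 87.8 FPKM in Flox and 226, 168 and 175 FPKM in HKO; log2 difference 1.16, SE 0.163, adjusted p = 0.000106). The small heat shock protein Hspb1 was at 92.6, 83.1 and 72.8 FPKM in Flox and 223, 143 and 190.04 FPKM in HKO (log2 difference 1.13, SE 0.195, adjusted p = 0.000696). Its list of cytosolic heat shock proteins gave 3 higher (15.8%) and 0 lower of 19, with a median of 0.0093. With 1 library left out, 1 to 2 were higher. Endoplasmic reticulum chaperones gave 5 higher of 29 (17.2%), and 1 higher and 1 lower in TPM. The higher count was 1 without Flox_BSA 1, Flox_BSA 2 or HKO_BSA 3, 3 without Flox_BSA 3 and 9 without HKO_BSA 1. None fell as deposited, and 1 did without HKO_BSA 1 or HKO_BSA 2.

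Lysosome and autophagy genes gave 12 lower (26.1%) and 4 higher (8.7%) of 46, against 10.9% and 9.72% of all genes tested. In TPM 16 were lower and 2 higher. The higher count was 7 without HKO_BSA 1 and 2 without Flox_BSA 1, Flox_BSA 2, HKO_BSA 2 or HKO_BSA 3. The lysosomal lipid carrier Npc2 was at 43.2, 44.3 and 47.8 FPKM in the Flox libraries and 21.8, 18.1 and 19.9 FPKM in the HKO libraries and the proton pump subunit Atp6v1b2 at 26.3, 26.5 and 30.6 FPKM in Flox and 10.5, 11.97 and 12.2 FPKM in HKO. Both fell (log2 differences -1.14 and -1.20), and macrophages are rich in each. Ulk1, the kinase that starts autophagy, was at 3.98, 4.28 and 3.86 FPKM in Flox and 15.01, 10.3 and 10.1 FPKM in HKO (log2 difference 1.32, SE 0.188, adjusted p = 0.000124), above Flox in every HKO library. Among cell death genes, Ripk3, the necroptosis kinase that hepatocytes barely express, was at 3.03, 2.43 and 2.78 FPKM in Flox and 0.112, 0.138 and 0.152 FPKM in HKO (log2 difference -1.72, SE 0.113, adjusted p = 2.77e-08). Cdkn2b, a cell cycle inhibitor, was at 5.22, 6.79 and 6.91 FPKM in Flox and 13.95, 11.9 and 13.004 FPKM in HKO (log2 difference 0.94, SE 0.136, adjusted p = 0.00015). The early response factor Klf4 fell and Btg2 rose (-1.09, adjusted p = 2.61e-05, and 0.87, adjusted p = 0.00247).

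The same genotype contrast in PA was set beside these values only for the named genes. It uses 6 other libraries, and the labels do not say whether both treatments were given to cells of the same mice. The difference between the contrasts was tested directly (PA contrast minus BSA contrast, limma): 27 of 9773 genes passed (0.276%), and 6 of the 208 named genes did. Most named genes were picked for a large BSA difference, and this test subtracts that same difference. The choice by itself thus favours values of the opposite sign, which all 6 had. The share among named genes therefore cannot be compared with that of all genes. G0s2 had a log2 difference of -1.55 in BSA and 0.35 in PA, Lce1g (a late cornified envelope gene) -1.91 and -0.39, and Ulk1 1.32 and -0.29. Derl3, which helps retrotranslocate misfolded proteins from the endoplasmic reticulum, was higher in BSA (0.87) and lower in PA (-0.51). Slfn2, a schlafen of lymphoid and myeloid cells, and Lpl fell in both, by -4.04 and -2.92 and by -3.67 and -2.58. G3bp1 itself had differences of -2.19 and -2.27, an interaction of -0.08 (SE 0.166, adjusted p = 0.801). For the other named genes a difference between the contrasts was not detected, which does not show that there was none.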

How the data were processed

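RNA had been taken from frozen primary hepatocytes (RNeasy Plus Mini Kit) and made into NEBNext Ultra RNA libraries, per the labels' protocols. The values are FPKM per gene, computed by the authors and deposited as 1 table; the build is GRCm38 (mm10), per the submitters' processing notes, and no source used here names the aligner, counter or strand setting. Multiplied by the deposited gene length, 100% of low values came within 0.01 of whole reads, which gave the depths. Overlapping and antisense genes may share reads.

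Values were tested as log2(FPKM + 1) with limma 3.58.1 in R 4.3.3: 4 group means over 12 libraries, a variance prior with a trend, two-sided, Benjamini-Hochberg over the 9773 genes whose mean in the 6 BSA libraries was 1 FPKM or more, threshold 0.05. Differences on this scale understate those of low genes. Exact permutation of 3 against 3 cannot give a p under 0.1, so marker sums carry no test. On simulated data the fit recovered 21 of 66, 56 of 67 and 65 of 67 genes changed by 0.5, 1 and 2 (log2), with 8 false calls among the genes left unchanged. The noise was drawn independently for each gene, and only genes with a mean log2(FPKM + 1) above 1 were changed. Real libraries such as HKO_BSA 1 deviate in many genes together, so these false calls give no rate for the real data.

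The 51 lists and the genes described were chosen with earlier results of these data known. Named genes are G3bp1, G3bp2, the 15 per direction with the largest log2 difference outside macrophage, shared and other cell type lists, the 10 per direction with the largest difference in FPKM outside macrophage and shared lists, up to 4 members of each list and the 8 most changed immune genes, all past the test with separated groups where any were, and all members of the uniporter and G3BP lists. Symbols of predicted genes and pseudogenes were not named, and a few genes that the rule names are not reported here. Promoters came from RefSeq (GRCm38.p6) by symbol, and motifs were searched on both strands. Alternatives covered the pseudocount, low-value filters, scaling, weights, limma-voom on computed reads, a fold limit, the replicate block and each library left out; removal of a length trend, scaling to reads outside mitochondrial genes and a random block were added after seeing the data.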

Additional observations from a re-analysis of the deposited data

Results flagged for a closer look

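For 6 named genes the HKO minus Flox difference itself differed between PA and BSA in a test of that difference (PA contrast minus BSA contrast on log2(FPKM + 1), limma, adjusted over 9773 genes). These genes were named for their BSA difference, which the test subtracts, so the values below may be overstated by that choice. G0s2 gave 1.91 (SE 0.267, adjusted p = 0.013): it was at 66.2, 75.1 and 61.5 FPKM in Flox and 29.9, 16.7 and 22.1 FPKM in HKO with BSA, and at 34.6, 31.0 and 28.0 FPKM in Flox and 47.9, 35.4 and 37.8 FPKM in HKO with PA. Lce1g gave 1.52 (SE 0.232, adjusted p = 0.0164) and was lower in all HKO libraries with BSA, while with PA HKO_PA 1 (25.9 FPKM) lay among the Flox libraries (25.2 to 28.7 FPKM). Slfn2 gave 1.11 (SE 0.177, adjusted p = 0.0205) and Lpl 1.09 (SE 0.198, adjusted p = 0.0375), and both were lower in HKO under either treatment, by less with PA. Ulk1 gave -1.61 (SE 0.267, adjusted p = 0.0227) and Derl3 -1.38 (SE 0.188, adjusted p = 0.013). Derl3 was above Flox in every HKO library with BSA and below it in every one with PA (4.18, 5.46 and 4.36 FPKM in Flox, 3.14, 3.22 and 2.59 in HKO). Over the alternatives without a fold limit, the highest adjusted p was 0.0481 for G0s2 and Derl3, 0.0588 for Lce1g, 0.0661 for Slfn2, 0.0796 for Ulk1 and 0.124 for Lpl.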

How the results depend on the processing

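No named gene changed direction among those that passed. Of 4387 values of 201 such genes under the alternatives without a fold limit, 148 lost the call, and of 157 values of the 7 named genes that had not passed, 13 gained it. The 2016 genes past the test became 1058 at a minimum of 5 FPKM, where fewer genes are tested, 5800 with an estimated weight for each library, 392 with a log2 fold limit of 1, and 1343 to 2405 with 1 library left out (1343 without Flox_BSA 1 or Flox_BSA 2). The 950 higher became 595, 3128 and 33 under those 3 settings, 517 in TPM, and 540 to 1225 with 1 library left out (604 without HKO_BSA 3). The 1066 lower became 463, 2672 and 359, and 1778 with no filter on low values, where 22127 genes are tested. Macrophage and shared list members that fell, 204, became 121 at the 5 FPKM minimum. The 27 genes whose contrast differed between PA and BSA became 11 at that minimum, 65 after quantile normalization, 45 after trimmed mean scaling, 1697 with weights, 82 with the length trend removed, 51 scaled to reads outside mitochondrial genes, 6 to 29 with 1 library left out (6 without Flox_BSA 1), and 0 with the fold limit, limma's test finding 10 at an unadjusted p under 0.05 there. Apart from the settings whose construction is named, the cause was not tested. Log2 differences correlated with gene length at -0.215 (Spearman, across 9773 genes, which are not independent).

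With the replicate block, fitted to the 6 BSA libraries alone, 2094 genes passed, 1010 of them higher. Of the 2094, 1816 were shared with the main fit of 12 libraries. The 6 BSA libraries without a block gave 1875. The deviations of same-numbered libraries correlated at 0.137, 0.0456 and 0.174, so the numbers were not taken to pair the samples; HKO_BSA 1 and Flox_BSA 1, and HKO_BSA 3 and Flox_BSA 3, were each other's best match across genotypes, and HKO_BSA 2 was not matched best by Flox_BSA 2. As a random block, genotype and number gave 1997. Depth limits genes near 1 FPKM, where a library holds few reads.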
